A study of Saccharomyces cerevisiae with 9 samples.

Results

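The genes described here are 10 enzyme and carrier genes that let budding yeast live on 2-carbon compounds: ICL1, MLS1 and MDH2 of the glyoxylate cycle, FBP1 and PCK1 of gluconeogenesis, ACS1, which makes acetyl-CoA, and CAT2, YAT1, YAT2 and CRC1 of the carnitine shuttle. They were taken by name from the deposited tables, where all 10 were present and tested, out of 7012 entries in the CdSe/ZnS table and 7042 in the InP/ZnS table. The cells were Saccharomyces cerevisiae S288C, a laboratory strain, grown in SD-glucose medium at 30 °C to mid-log phase. The groups were 3 libraries exposed for 6 h to CdSe/ZnS quantum dots (dose 10 µg/mL), 3 exposed for 6 h to InP/ZnS quantum dots (dose 100 µg/mL) and 3 untreated libraries that both comparisons share as far as the labels tell. Quantum dots are semiconductor nanocrystals, here built of cadmium selenide or indium phosphide and coated with zinc sulfide. The design text gives the InP/ZnS dose in µg/mL and the treatment text in mg/mL, so its unit is uncertain. Under either unit the quantum dots were given at different doses, so composition and dose cannot be told apart in any contrast between them. The labels do not say whether the libraries came from separate cultures, and the p-values may therefore reflect technical spread between libraries alone.

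The glyoxylate cycle joins acetyl-CoA units into malate and succinate while bypassing the steps of the tricarboxylic acid cycle that release carbon dioxide. Phosphoenolpyruvate carboxykinase and fructose-1,6-bisphosphatase then lead this carbon back to sugar phosphates. Acetyl units reach the mitochondrion as acetylcarnitine, made and unmade by carnitine acetyltransferases and carried across the inner membrane by Crc1. Glucose represses most of these genes through the Mig1 repressor, and without glucose the activators Cat8 and Sip4 turn them on through a promoter sequence called the carbon source-responsive element. Glucose medium is a condition in which most of these genes are known to be held low. How far they were repressed in the untreated cells here was not measured. YAT2, ICL1, MDH2 and YAT1 stood above 53.5% or more of all tested entries in the untreated column for CdSe/ZnS.

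A loose form of that element, CCNT followed by 4 unspecified bases and CCG, searched on both strands of the 500 bases before the start codon, was found at 8 of the 10 genes. In the RefSeq genome of assembly R64, 7.08% of 6000 protein-coding genes held it in the same window. The element is already known as one through which these genes are turned on, so the count of 8 is no independent finding. No enrichment was tested, and the same holds for the stricter form and the Mig1 strings below. The match nearest to the start codon of each gene is printed below, since it is the sequence element that 8 of the promoters hold. Letters run 5′ to 3′ on the strand of the gene, and capitals mark the match, which reads as its reverse complement at PCK1 and CAT2.
ICL1: ccaggtttCCATTCATCCGagcgatca
MLS1: catagcttCCATTGGGCCGatgaagtt
MDH2: tactttgcCCATTCGGCCGtagccgtt
PCK1: tggataggCGGATAAAGGGcccaaaca
ACS1: tgactgctCCATTTCGCCGgatgtcga
CAT2: tctatggcCGGGCGAAAGGgcaaatga
YAT1: cggactttCCGTCCGCCCGgcgggctg
YAT2: tcattttcCCGTCGGTCCGataatgaa

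In R64 coordinates the capitals lie at chrV:287302-287312 for ICL1 (minus strand), chrXIV:405858-405868 for MLS1 (plus strand), chrXV:83287-83297 for MDH2 (minus strand) and chrXI:630790-630800 for PCK1 (plus strand). Those of ACS1 lie at chrI:45383-45393 (minus strand), of CAT2 at chrXIII:192507-192517 (plus strand), of YAT1 at chrI:190057-190067 (plus strand) and of YAT2 at chrV:202023-202033 (plus strand). A stricter form with T after CCNT, contained in the loose one, was found at 6 genes (ICL1, MLS1, MDH2, PCK1, ACS1 and CAT2), against 2.58% of all promoters. For FBP1 and CRC1 these letters were not in the window, which says nothing about the factors. Strings bound by the Mig1 repressor (the string GCGGGG, the string GTGGGG, the string CCGGGG or the string CTGGGG, both strands) stood before 7 of the 10 genes (ICL1, MLS1, MDH2, FBP1, PCK1, CAT2 and YAT1), against 22.7% of all promoters, and the one at MDH2 overlaps another match of the loose element there.

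All 10 genes have a single coding exon and overlap no other annotated gene, and none shares its locus with another entry of either table. Their coding lengths run from 984 bp for CRC1 to 2772 bp for YAT2. No stretch of 80 bases of any of the 10, the shortest read the authors kept, occurs elsewhere in the genome, and neither does any stretch of 25 bases. Every start and end equals that of the R64 annotation, which puts ICL1 at chrV:285241-286914, CAT2 at chrXIII:192788-194800, YAT1 at chrI:190193-192256, CRC1 at chrXV:513295-514278 and MDH2 at chrXV:81787-82920.

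The values are FPKM, a measure of fragments scaled to transcript length and library size, which the authors deposited as 1 value per gene and condition, with a log2 fold change, a p-value and a q-value from their own test. No value per library was used, so the spread between libraries and the sequencing depth are unknown. Errors are implied standard errors, that is, the log2 fold change over the authors' test statistic. Their median over all tested entries was 0.246 in each table. The deposited q does not follow from these errors. A normal test on the same statistic (adjusted p under 0.05) called 9.3% of entries higher with InP/ZnS, where the deposited q called 23.9%. With CdSe/ZnS these shares were 4.43% and 9.59%, and the normal test also called fewer entries lower with each quantum dot. Why they differ was not tested. A gene was called where q was under 0.05. Over all 6321 tested entries with CdSe/ZnS the log2 fold change had a median of -0.35, so values relative to that median are given beside the deposited ones for this quantum dot, while the median of 6367 entries with InP/ZnS was 0.07. In bulk RNA, fewer cells expressing a gene and less RNA per cell cannot be told apart.

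Exposure to InP/ZnS came with higher levels of 8 of the 10 genes and lower levels of none. In all tested entries, 23.9% were called higher and 17.2% lower with InP/ZnS. The 10 genes and the lists of neighbouring genes below were chosen with earlier results of these data known. Their counts beside such shares are thus no independent finding. The median log2 fold change of the 10 genes was 0.91, against 0.07 for all tested entries. All 4 carnitine shuttle genes rose, as did ICL1, MLS1, ACS1 and FBP1, while MDH2 and PCK1 were not called. With CdSe/ZnS, 3 genes rose (YAT1, ICL1 and CRC1) and 1 fell (MDH2), where 9.59% of all tested entries were called higher and 43.6% lower. The median of the 10 genes with CdSe/ZnS was 0.08, or 0.42 relative to all entries.

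**Figure D1:**
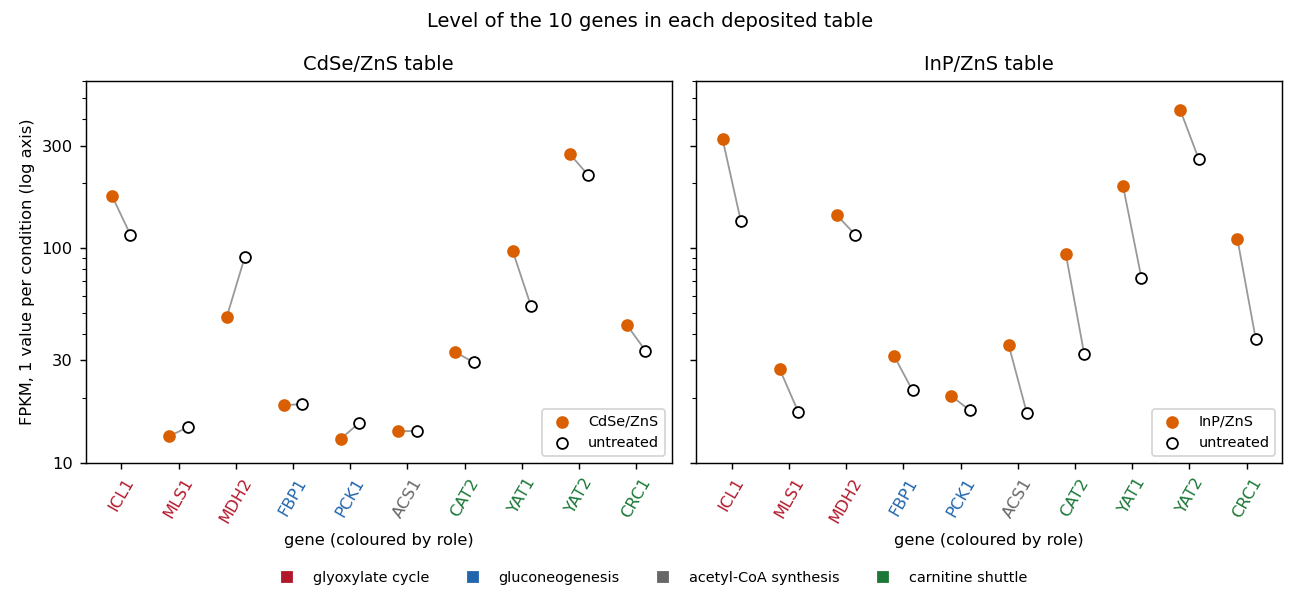
Level of each gene in FPKM (log axis), 1 deposited value per condition, with the treated value (filled) left of the untreated one (open) in each table. With InP/ZnS every filled point lies above its open partner, while with CdSe/ZnS the pairs of FBP1 and ACS1 are nearly level and MDH2 lies below its untreated value.

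In untreated cells the 10 genes spread over more than a factor of 10 in level, and their order was the same in both tables. Both comparisons share their untreated libraries as far as the labels tell, so the shared order is no independent repeat. YAT2 stood highest at 219 FPKM and ICL1 next at 115 FPKM in the untreated column of the authors' deposited table for CdSe/ZnS. MDH2 (91.2 FPKM) and YAT1 (53.8 FPKM) followed in the same column of the authors' deposited table, then CRC1 (33.4 FPKM) and CAT2 (29.3 FPKM). FBP1, PCK1, MLS1 and ACS1 lay close together at 18.8, 15.4, 14.6 and 14.1 FPKM there. The highest of these, FBP1, stood above 22.7% of all tested entries. YAT2, ICL1, MDH2 and YAT1 stood above 84.0%, 73.3%, 67.5% and 53.5% of them, and CRC1 and CAT2 above 38.7% and 35.0%. Without values per library, which neighbours in this order differ beyond their spread could not be tested.

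CRC1, CAT2 and YAT1 of the carnitine shuttle had the highest folds of the 10 genes with InP/ZnS. CRC1, the carrier of the inner mitochondrial membrane, stood at 110 FPKM with InP/ZnS and 37.6 FPKM untreated in the authors' deposited table. This is a 2.92-fold increase, or 1.55 on the log2 scale (implied standard error 0.24, q = 0.000252, the smallest q that the authors' deposited table holds). CAT2, the carnitine acetyltransferase of mitochondria and peroxisomes, reached 93.7 FPKM with InP/ZnS against 32.2 FPKM untreated in the authors' deposited table, 1.54 on the log2 scale (implied standard error 0.24, q = 0.000252). Both folds lay above those of 97.7% of all tested entries.

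With CdSe/ZnS CRC1 rose and CAT2 was not called. CRC1 stood at 43.7 FPKM with CdSe/ZnS and 33.4 FPKM untreated in the authors' deposited table, which is 0.39 on the log2 scale (implied standard error 0.23, q = 0.0254). Relative to the median of all entries CRC1 stood at 0.74, and it passed a normal test on the authors' deposited statistic moved to that value (adjusted p = 0.00865, Benjamini-Hochberg), but did not pass the same test on the value as deposited (adjusted p = 0.186). CAT2 had 32.8 FPKM with CdSe/ZnS and 29.3 FPKM untreated in the authors' deposited table, which is 0.16 on the log2 scale, or 0.51 relative to the median, and did not pass (q = 0.383). Whether the responses to both quantum dots differ was not tested. The tables hold different untreated values for the same genes and, as far as the labels tell, share their untreated libraries. Dose also differed between the quantum dots, so composition and dose could not be told apart.

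YAT1, the carnitine acetyltransferase of the outer mitochondrial membrane, rose with each quantum dot. It stood at 195 FPKM with InP/ZnS and 72.8 FPKM untreated in the authors' deposited table, which is 1.42 on the log2 scale (implied standard error 0.19, q = 0.000252). With CdSe/ZnS it stood at 97.1 FPKM, against 53.8 FPKM untreated, in the authors' deposited table, which is 0.85 on the log2 scale (implied standard error 0.14, q = 0.000173, the smallest in that table). Relative to the median of all entries the CdSe/ZnS value was 1.20.

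The implied errors and untreated levels of YAT1 stood apart from those of most entries. Its implied standard errors were among the smallest, with 0.141% of tested entries lower in the InP/ZnS table and 0.0791% in the CdSe/ZnS table. Its untreated level was 1.35 times as high in the InP/ZnS table as in the CdSe/ZnS table, where the median ratio over 6027 entries was 1.14 and 95% of them lay between 0.973 and 1.34. The ratios of the other 9 genes ran from 1.10 for CAT2 to 1.26 for MDH2. The part of this shift in the fold changes of YAT1 was not tested.

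YAT2, the cytosolic carnitine acetyltransferase gene, was the most abundant transcript of the 10 in every condition. It stood at 439 FPKM with InP/ZnS and 261 FPKM untreated in the authors' deposited table, which is 0.75 on the log2 scale (implied standard error 0.26, q = 0.000252). Relative to the median of all entries it stood at 0.68 and just missed the normal test on the authors' deposited statistic (adjusted p = 0.053, Benjamini-Hochberg). The CdSe/ZnS level was 274 FPKM, against 219 FPKM untreated, in the authors' deposited table, which is 0.33 on the log2 scale and did not pass (q = 0.0902). That value was 0.67 relative to the median and did pass the normal test on the authors' deposited statistic (adjusted p = 0.0286, Benjamini-Hochberg). On the folds as deposited, YAT2 passed with InP/ZnS but not with CdSe/ZnS. With the trend of fold change with coding length removed, YAT2 stood at 0.47 (CdSe/ZnS) and 0.66 (InP/ZnS) and passed with neither.

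The share of each gene among the carnitine acetyltransferase transcripts differed between exposed and untreated cells. YAT2 made up 60.4% of the summed FPKM of CAT2, YAT1 and YAT2 with InP/ZnS, against 71.3% untreated. CAT2 made up 12.9% with InP/ZnS and 8.80% untreated, and YAT1 26.7% and 19.9% in the same order. With CdSe/ZnS, YAT2 held 67.9%, against 72.5% untreated, YAT1 24.0% against 17.8%, and CAT2 8.11% against 9.72%. These shares come from 1 value per condition and carry no error of their own. The sum itself was 728 FPKM with InP/ZnS and 366 FPKM untreated, and 404 FPKM with CdSe/ZnS and 302 FPKM untreated in the other table.

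**Figure D2:**
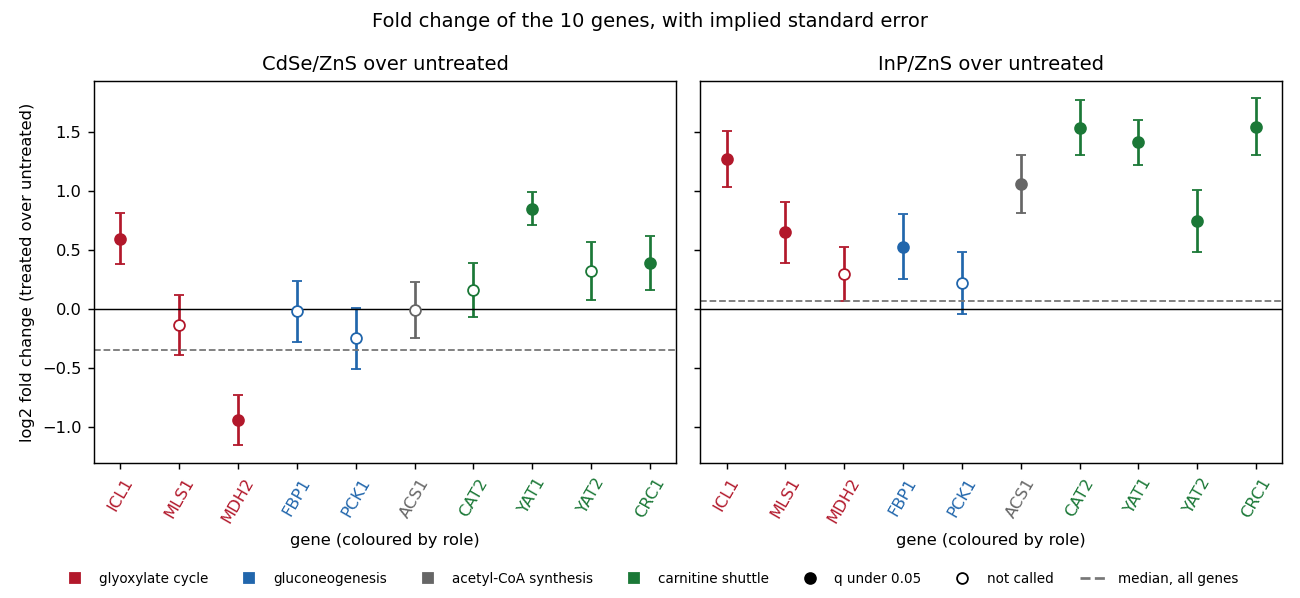
Log2 fold change of each gene, treated over untreated, with bars of 1 implied standard error; filled points have q under 0.05, and the dashed line is the median of all tested entries. With InP/ZnS 8 of 10 points are filled, all above 0, and CRC1, CAT2 and YAT1 stand highest; with CdSe/ZnS YAT1, ICL1 and CRC1 are filled above 0 and MDH2 below it.

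Among the glyoxylate cycle genes, ICL1 was called higher with each quantum dot, MLS1 higher with InP/ZnS alone and MDH2 lower with CdSe/ZnS alone. Differences between these genes were not tested. ICL1, isocitrate lyase, which cleaves isocitrate at the entry to the cycle, stood at 322 FPKM with InP/ZnS and 133 FPKM untreated in the authors' deposited table, which is 1.27 on the log2 scale (implied standard error 0.24, q = 0.000252). With CdSe/ZnS it stood at 175 FPKM, against 115 FPKM untreated, in the authors' deposited table, which is 0.60 on the log2 scale (implied standard error 0.22, q = 0.000331), or 0.95 relative to the median of all entries. ICL1 passed the normal test as deposited, relative to the median and with the trend of fold change with coding length removed, for each quantum dot.

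MLS1, malate synthase, which performs the next step of the cycle, was lower in level and in fold. It had 27.2 FPKM with InP/ZnS and 17.3 FPKM untreated in the authors' deposited table, which is 0.65 on the log2 scale (implied standard error 0.26, q = 0.000252). That call did not hold in the normal test on the authors' deposited statistic, either as deposited (adjusted p = 0.0647, Benjamini-Hochberg) or relative to the median (adjusted p = 0.108). The CdSe/ZnS level of 13.3 FPKM, against 14.6 FPKM untreated, was -0.14 on the log2 scale by the authors' deposited table (q = 0.526), or 0.21 relative to the median. The level of ICL1 was 11.8 times that of MLS1 with InP/ZnS and 7.69 times untreated, and 13.1 times with CdSe/ZnS and 7.87 times untreated in the other table.

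MDH2, the cytosolic malate dehydrogenase, was the only one of the 10 genes called lower. It stood at 47.6 FPKM with CdSe/ZnS and 91.2 FPKM untreated in the authors' deposited table, which is -0.94 on the log2 scale (implied standard error 0.21, q = 0.000173). Its fold lay above that of 17.7% of all tested entries. MDH2 stood at -0.59 relative to the median and still passed the normal test on the authors' deposited statistic (adjusted p = 0.0261, Benjamini-Hochberg), but with the trend with coding length removed it stood at -0.54 and did not (adjusted p = 0.0513). With InP/ZnS it stood at 142 FPKM, against 115 FPKM untreated, in the authors' deposited table, which is 0.30 on the log2 scale and did not pass (implied standard error 0.23, q = 0.056).

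MDH3, which encodes the peroxisomal malate dehydrogenase, stood at 4.30 times the level of MDH2 with CdSe/ZnS and 2.42 times untreated. The log2 fold change of MDH3 in the authors' deposited table was -0.11 with CdSe/ZnS (q = 0.573), or 0.24 relative to the median, and 0.74 with InP/ZnS (q = 0.000252). MDH1, the mitochondrial enzyme gene, fell by 0.63 on the log2 scale with CdSe/ZnS (q = 0.000173) and had 0.35 with InP/ZnS (q = 0.0361) in the authors' deposited table; the CdSe/ZnS value was -0.29 relative to the median and did not pass the normal test (adjusted p = 0.328, Benjamini-Hochberg).

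Of the gluconeogenic pair, FBP1 was called with InP/ZnS alone and PCK1 with neither quantum dot. FBP1, fructose-1,6-bisphosphatase, had 31.4 FPKM with InP/ZnS and 21.7 FPKM untreated in the authors' deposited table, which is 0.53 on the log2 scale (implied standard error 0.27, q = 0.002). In the normal test on the authors' deposited statistic FBP1 did not pass with InP/ZnS, either as deposited (adjusted p = 0.184, Benjamini-Hochberg) or relative to the median (adjusted p = 0.272). With CdSe/ZnS it had 18.6 FPKM, against 18.8 FPKM untreated, in the authors' deposited table, which is -0.02 on the log2 scale (q = 0.947), or 0.33 relative to the median.

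PCK1, phosphoenolpyruvate carboxykinase, had 20.5 FPKM with InP/ZnS and 17.6 FPKM untreated in the authors' deposited table, which is 0.22 on the log2 scale (implied standard error 0.26, q = 0.227). The CdSe/ZnS level was 13.0 FPKM, against 15.4 FPKM untreated, in the authors' deposited table, which is -0.25 on the log2 scale (implied standard error 0.26, q = 0.218), or 0.10 relative to the median. PCK1 and FBP1 are the genes whose products act only in the direction of sugar synthesis.

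ACS1, the acetyl-CoA synthetase gene that glucose represses, rose with InP/ZnS and was not called with CdSe/ZnS. It had 35.5 FPKM with InP/ZnS and 17.0 FPKM untreated in the authors' deposited table, a 2.09-fold increase or 1.06 on the log2 scale (implied standard error 0.25, q = 0.000252). With CdSe/ZnS it had 14.0 FPKM, against 14.1 FPKM untreated, in the authors' deposited table, which is -0.01 on the log2 scale (implied standard error 0.24, q = 0.973), or 0.34 relative to the median. ACS2, the isoform used during growth on glucose, stood at 126 FPKM with InP/ZnS and 131 FPKM untreated in the authors' deposited table (q = 0.794). The level of ACS2 was thus 3.56 times that of ACS1 with InP/ZnS, against 7.69 times untreated. With CdSe/ZnS, ACS2 had a log2 fold change of -0.48 (q = 0.00356) in the authors' deposited table, and -0.14 relative to the median.

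**Figure D3:**
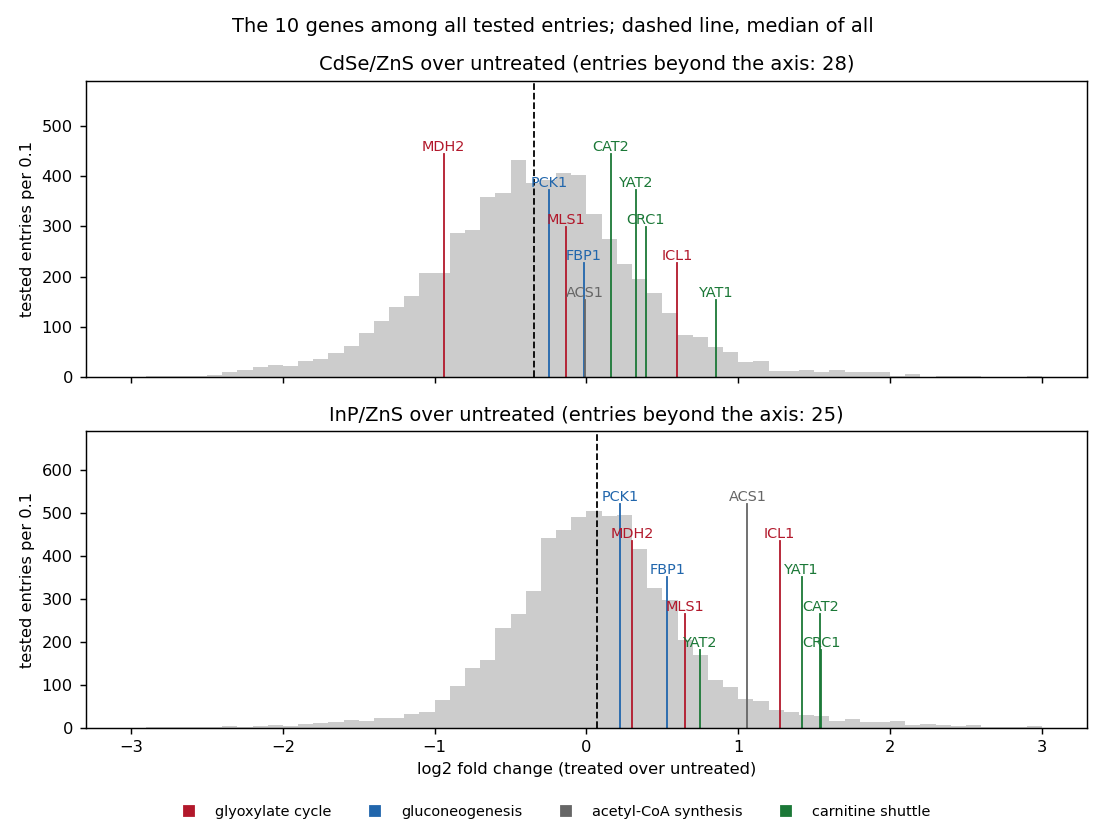
Number of tested entries by log2 fold change (bins of 0.1, treated over untreated), with a labelled line for each of the 10 genes and the median of all entries dashed; 28 entries lie beyond the axis with CdSe/ZnS and 25 with InP/ZnS. With InP/ZnS all 10 lines lie right of the dashed line, and with CdSe/ZnS 9 of 10 do, MDH2 being the exception.

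Relative to the median of all entries, 9 of the 10 genes were above 0 with CdSe/ZnS and all 10 with InP/ZnS. In the normal test on these values, 4 genes were higher with CdSe/ZnS (ICL1, YAT1, YAT2 and CRC1) and MDH2 was lower, where 11.9% of all entries were called higher and 13.6% lower. With InP/ZnS 5 were higher (ICL1, ACS1, CAT2, YAT1 and CRC1) and none lower, where 7.87% of all entries were called higher and 8.32% lower. Of the 8 genes called with InP/ZnS by the authors' q, MLS1 and FBP1 were already not called by the normal test on the deposited folds, which left 6, and YAT2 was no longer called after the rescaling, which left 5.

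The shares of all tested entries called higher and lower under the other rules, against which their counts in the closing section are read, were as follows. With CdSe/ZnS they were 6.45% and 36.1% at q under 0.01, and 1.52% and 14.3% where the log2 fold change also had to be at least 1 in size. The normal test called 4.43% higher and 29.6% lower as deposited, and 9.89% and 11.2% with the length trend removed. With InP/ZnS they were 18.5% and 13.2% at q under 0.01, and 4.63% and 2.18% with the fold required. There the normal test called 9.3% higher and 6.55% lower as deposited, and 7.63% and 8.28% with the length trend removed.

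**Figure D4:**
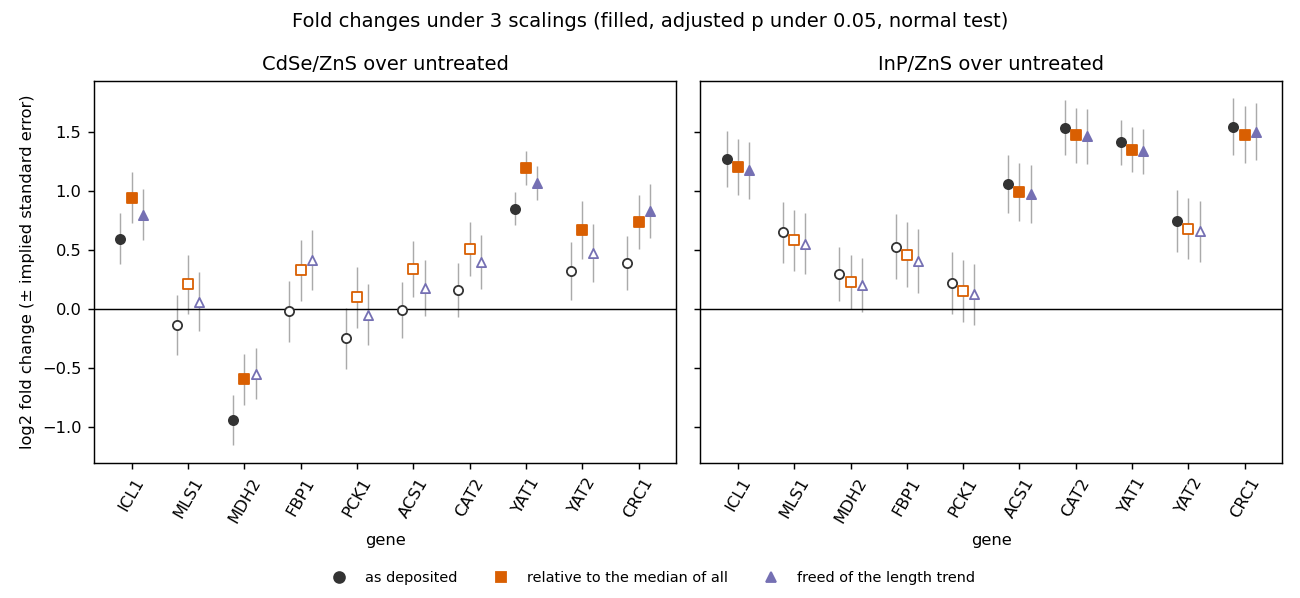
Log2 fold change of each gene as deposited (circles), relative to the median of all tested entries (squares) and with the trend with coding length removed (triangles), with bars of 1 implied standard error; filled symbols have an adjusted p under 0.05 in the normal test. With CdSe/ZnS both rescalings move every gene upward, and with InP/ZnS the symbols of each gene differ by less than 1 bar.

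The enzymes that share substrates with these genes were called in both directions with CdSe/ZnS. Of 8 partner enzyme genes, 3 rose and 4 fell with CdSe/ZnS, where 9.59% of all tested entries were called higher and 43.6% lower. The number that fell was thus near the share in the whole table. With InP/ZnS 5 rose and 0 fell, where the shares of all tested entries were 23.9% and 17.2%. CIT2 alone of the 4 that fell with CdSe/ZnS passed the normal test as lower relative to the median. CIT2, the peroxisomal citrate synthase that condenses acetyl-CoA in the glyoxylate cycle, stood at 606 FPKM with CdSe/ZnS and 1289 FPKM untreated in the authors' deposited table, which is -1.09 on the log2 scale (q = 0.000173), or -0.74 relative to the median. With InP/ZnS, CIT2 stood at 1482 FPKM, against 1456 FPKM untreated, in the authors' deposited table, which is 0.03 on the log2 scale (q = 0.919). ACO1, aconitase, had log2 fold changes of 0.72 (CdSe/ZnS) and 1.12 (InP/ZnS), and IDP2, the cytosolic isocitrate dehydrogenase, 0.61 and 0.99 in the same order, in the authors' deposited table (q of 0.00119 or less). The CdSe/ZnS values relative to the median were 1.07 for ACO1 and 0.96 for IDP2, and both genes passed the normal test on that scale with each quantum dot.

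Of the pyruvate carboxylase genes, which feed oxaloacetate to PCK1, PYC2 rose with each quantum dot and PYC1 fell with CdSe/ZnS. PYC2 had log2 fold changes of 0.46 with CdSe/ZnS (q = 0.0176) and 0.64 with InP/ZnS (q = 0.000681) in the authors' deposited table. PYC1 fell by 0.76 on the log2 scale with CdSe/ZnS (q = 0.000173) and had -0.28 with InP/ZnS (q = 0.142) in the authors' deposited table. The fall of PYC1 with CdSe/ZnS was -0.41 relative to the median and did not pass the normal test on the authors' deposited statistic there (adjusted p = 0.246, Benjamini-Hochberg), though it passed as deposited and with the length trend removed (0.0117 and 0.0209). PYC2 with CdSe/ZnS was 0.80 relative to the median and passed there (adjusted p = 0.0104, Benjamini-Hochberg, on the authors' deposited statistic), but not as deposited or with the length trend removed (0.162 and 0.202). With InP/ZnS PYC2 passed none of the 3 normal tests on the authors' deposited statistic (adjusted p of 0.11 to 0.269). Among 4 genes of the glycolytic steps that run against FBP1 and PCK1 (PFK1, PFK2, CDC19 and PYK2), 1 was called. PFK2, a phosphofructokinase subunit gene, had a log2 change of 0.61 with CdSe/ZnS (q = 0.000912), or 0.96 relative to the median, and 0.00 with InP/ZnS (q = 0.989) in the authors' deposited table.

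Of 8 transporter genes, 1 rose and 1 fell with CdSe/ZnS, and 3 rose and 2 fell with InP/ZnS. Beside these stand the shares of all tested entries called higher and lower, 9.59% and 43.6% with CdSe/ZnS and 23.9% and 17.2% with InP/ZnS. AGP2, which encodes the plasma membrane permease that takes up carnitine, had 57.3 FPKM with CdSe/ZnS and 29.5 FPKM untreated in the authors' deposited table, a 1.94-fold increase (q = 0.000173), or 1.31 on the log2 scale relative to the median. It had 70.7 FPKM with InP/ZnS and 36.3 FPKM untreated in the authors' deposited table, again a 1.94-fold increase (q = 0.000252). OAC1, the mitochondrial oxaloacetate carrier gene, had log2 fold changes of -0.94 with CdSe/ZnS and -0.53 with InP/ZnS in the authors' deposited table (q of 0.000252 or less). OAC1 stood at -0.59 (CdSe/ZnS) and -0.60 (InP/ZnS) relative to the median and passed the normal test on the authors' deposited statistic with neither (adjusted p = 0.0525 and 0.0686, Benjamini-Hochberg). DIC1, the dicarboxylate carrier gene, had 0.74 with InP/ZnS in the authors' deposited table and shares its locus with another entry, which makes it uncertain. ATO2 and JEN1, genes of ammonium or acetate and of lactate transport, had log2 fold changes of 0.51 and -0.33 with InP/ZnS (q = 0.00108 and 0.0365) in the authors' deposited table. With InP/ZnS, DIC1, ATO2 and JEN1 passed none of the 3 normal tests.

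Among the regulators of these genes, MIG2 had the lowest fold of all 49 neighbouring genes with each quantum dot, while the activator genes SIP4 and ADR1 rose with both and CAT8 with InP/ZnS. MIG2, a repressor of glucose-repressed genes related to Mig1, stood at 74.6 FPKM with CdSe/ZnS and 242 FPKM untreated in the authors' deposited table, which is -1.70 on the log2 scale (implied standard error 0.23, q = 0.000173), or -1.35 relative to the median. With InP/ZnS it stood at 86.4 FPKM, against 295 FPKM untreated, in the authors' deposited table, which is -1.77 on the log2 scale (implied standard error 0.23, q = 0.000252). MIG1 itself fell by 0.76 on the log2 scale with CdSe/ZnS (q = 0.000173) and had 0.06 with InP/ZnS (q = 0.751) in the authors' deposited table; relative to the median the CdSe/ZnS value was -0.41 and did not pass the normal test (adjusted p = 0.163, Benjamini-Hochberg).

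CAT8, the activator of the carbon source-responsive element, had 23.5 FPKM with InP/ZnS and 9.14 FPKM untreated in the authors' deposited table, which is 1.36 on the log2 scale (implied standard error 0.24, q = 0.000252). With CdSe/ZnS it had 9.68 FPKM, against 8.20 FPKM untreated, in the authors' deposited table, which is 0.24 on the log2 scale (q = 0.183), or 0.59 relative to the median. SIP4, the other activator of that element, had log2 fold changes of 0.87 with CdSe/ZnS (q = 0.000173), or 1.22 relative to the median, and 0.75 with InP/ZnS (q = 0.000252) in the authors' deposited table. ADR1, an activator of ethanol and fatty acid use, had 0.55 with CdSe/ZnS (q = 0.000629), or 0.90 relative to the median, and 0.81 with InP/ZnS (q = 0.000252) in the authors' deposited table. The CdSe/ZnS value of ADR1 passed the normal test relative to the median (adjusted p = 0.00276, Benjamini-Hochberg, on the authors' deposited statistic). It did not pass that test as deposited or with the length trend removed (0.0738 and 0.161). In all, 3 of 16 regulator genes rose and 7 fell with CdSe/ZnS, where 9.59% of all tested entries were called higher and 43.6% lower, so the number that fell was near the share in the whole table. With InP/ZnS 7 rose and 1 fell, where 23.9% of all tested entries were called higher and 17.2% lower.

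Most of the remaining regulator calls concern the Snf1 kinase, which lifts glucose repression, and its partners. With CdSe/ZnS the kinase gene SNF1 (-0.47), the activating subunit gene SNF4 (-0.75), the scaffold genes GAL83 (-0.79) and SIP2 (-0.60) and the phosphatase subunit gene REG1 (-0.36) were lower by these log2 fold changes with q under 0.05 in the authors' deposited table. None of these 5 passed the normal test relative to the median of all entries, where they ran from -0.44 to -0.01. SIP1, the third scaffold gene, had 0.43 with CdSe/ZnS, or 0.78 relative to the median, and 0.32 with InP/ZnS in the authors' deposited table (q = 0.0102 and 0.0446). SIP2 had 0.42, HAP4, an activator of respiratory genes, 0.50, and RDS2, an activator of gluconeogenic genes, 0.39 on the log2 scale with InP/ZnS in the authors' deposited table (q of 0.0202 or less). With InP/ZnS, SIP1, SIP2, HAP4 and RDS2 passed none of the 3 normal tests.

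**Figure D5:**
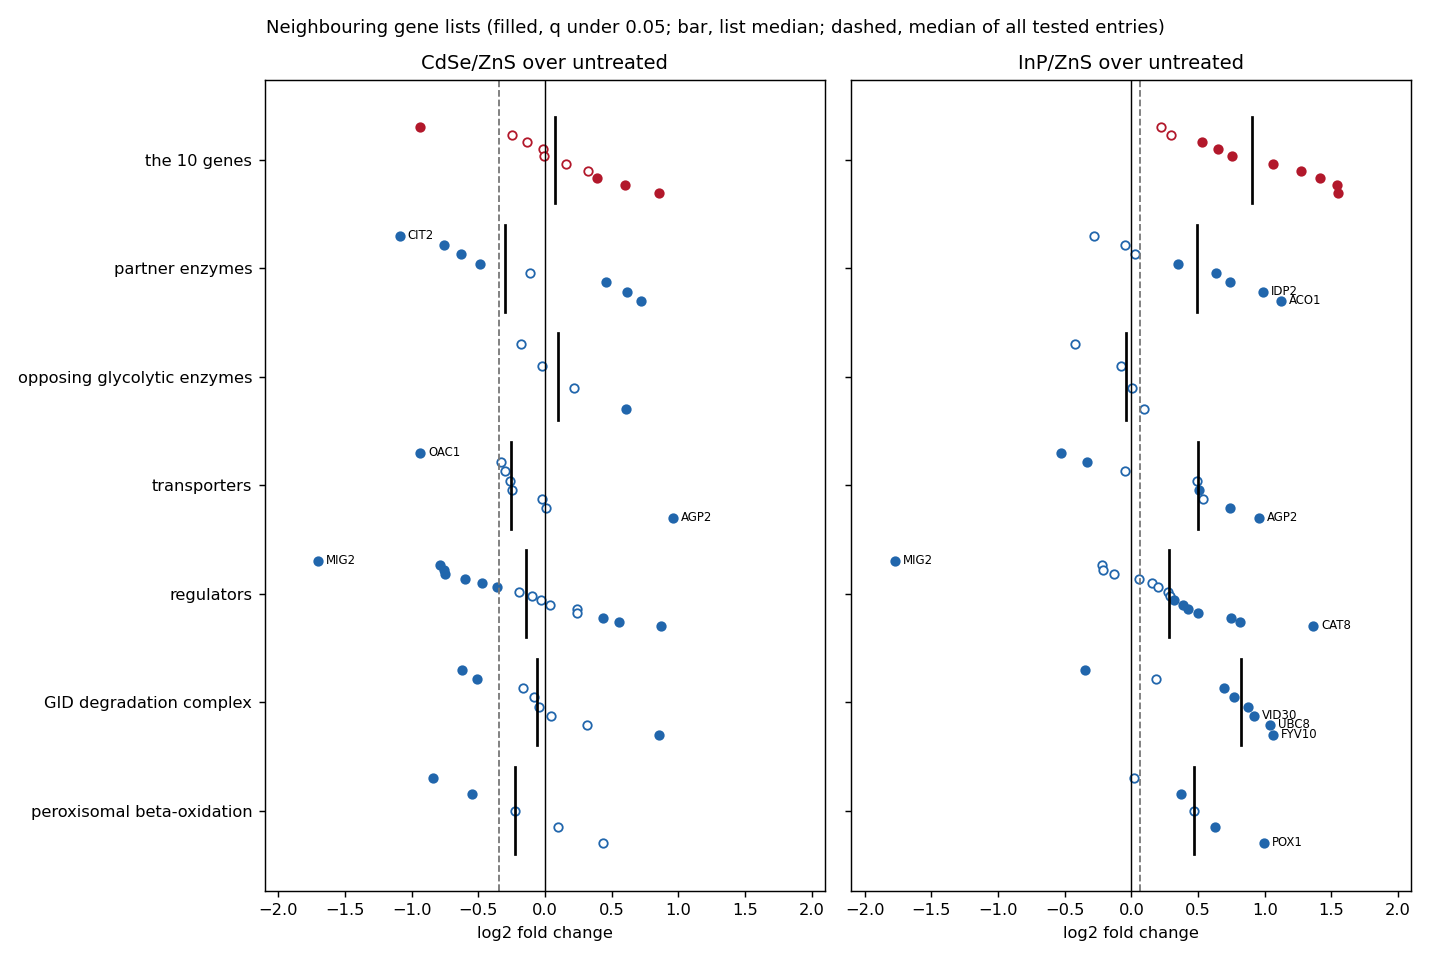
Log2 fold change (treated over untreated) of the 10 genes and of 49 genes in 6 neighbouring lists; filled points have q under 0.05, black bars are list medians and dashed lines the median of all tested entries. MIG2 stands lowest for each quantum dot, and with InP/ZnS the points of the GID complex lie mostly between 0.69 and 1.06.

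The GID complex is the ubiquitin ligase that marks Fbp1, Pck1, Icl1 and Mdh2 proteins for degradation when glucose returns. Of its 8 genes, 6 rose and 1 fell with InP/ZnS, and 1 rose and 2 fell with CdSe/ZnS, beside 23.9% and 17.2% of all tested entries with InP/ZnS and 9.59% and 43.6% with CdSe/ZnS. With InP/ZnS, FYV10 (1.06), UBC8 (1.04), VID30 (0.92), GID8 (0.88), RMD5 (0.77) and VID28 (0.69) rose on the log2 scale, all with q = 0.000252 in the authors' deposited table. GID8 shares its locus with another entry and is uncertain. VID24, the substrate receptor gene, had log2 fold changes of -0.51 with CdSe/ZnS (q = 0.00448) and -0.35 with InP/ZnS (q = 0.0497) in the authors' deposited table. VID24 stood at -0.16 (CdSe/ZnS) and -0.41 (InP/ZnS) relative to the median and passed the normal test on the authors' deposited statistic with neither (adjusted p = 0.676 and 0.283, Benjamini-Hochberg). With CdSe/ZnS RMD5 rose by 0.86, or 1.21 relative to the median, and UBC8 fell by 0.62 (log2) in the authors' deposited table (q = 0.000173 for each), and the fall of UBC8 became -0.27 relative to the median, where it did not pass the normal test (adjusted p = 0.414, Benjamini-Hochberg).

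Peroxisomal fatty acid oxidation, which supplies acetyl units to the same routes, had 3 of 5 genes higher with InP/ZnS and 2 lower with CdSe/ZnS, where 23.9% of all tested entries were called higher with InP/ZnS and 43.6% lower with CdSe/ZnS. POX1, the acyl-CoA oxidase gene, had 25.9 FPKM with InP/ZnS and 13.0 FPKM untreated in the authors' deposited table, which is 0.99 on the log2 scale (q = 0.000252). The fatty acid transporter genes PXA1 and PXA2 had 0.38 and 0.63 on the log2 scale with InP/ZnS (q = 0.0294 and 0.000252) in the authors' deposited table. With CdSe/ZnS PXA1 fell by 0.84 and PXA2 by 0.55 in the authors' deposited table (q = 0.000173 and 0.000771), and neither passed the normal test relative to the median, where they stood at -0.49 and -0.20. With InP/ZnS neither passed it relative to the median on the authors' deposited statistic (adjusted p = 0.478 and 0.0749, Benjamini-Hochberg), while POX1 did. Over all 49 neighbouring genes, 9 rose and 16 fell with CdSe/ZnS and 24 rose and 4 fell with InP/ZnS, with median log2 fold changes of -0.11 and 0.38. Of all tested entries, 9.59% were called higher and 43.6% lower with CdSe/ZnS, and 23.9% and 17.2% with InP/ZnS. In the normal test relative to the median, 11 were higher and 2 lower (CIT2 and MIG2) with CdSe/ZnS, and 14 were higher and 1 lower (MIG2) with InP/ZnS, where 11.9% and 13.6% of all entries were called with CdSe/ZnS and 7.87% and 8.32% with InP/ZnS.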

How the data were processed

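Poly(A) RNA was made into stranded libraries and sequenced, per the labels' protocols. Reads lost bases of quality below 20 and 12 bases at the 5′ end, those under 80 bp were dropped, and the rest were aligned to the S288C genome with TopHat in Galaxy, per the deposited text sheets. The submitters' processing notes list TopHat and Cuffdiff. Their versions, strand and normalization settings and the build number were not given in the sources used here. For each gene and condition the authors deposited a single FPKM. Their deposited log2 fold change has no pseudocount, the test score is their deposited statistic, and the p-value and q-value are their deposited ones. The smallest deposited p was 5e-05, held by 1834 CdSe/ZnS entries and 1266 InP/ZnS entries. The treated column was fixed from the authors' lists of higher and lower genes.

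Computed here with Python 3.11.15, numpy 2.4.6, pandas 2.3.3 and scipy 1.17.1 were the implied standard error (log2 fold change over score), a normal test (2-sided, Benjamini-Hochberg adjusted over all tested entries), and its repeats relative to the median or freed of the length trend (medians of 20 bins of coding length, interpolated). The normal test was also run on simulated folds whose noise was drawn from the same implied standard errors. That run cannot show whether these errors fit the data. Promoter sequences were read from RefSeq assembly R64, since 99.5% of 5245 and 99.6% of 5250 entries alone at their locus had its start and end. The 10 genes, the neighbouring lists and the motifs were chosen with earlier results of these data known. Named were all 10 genes and, from the neighbouring lists, every gene with q under 0.05 in either table. PFK1, CDC19, PYK2 and other uncalled genes are given by count or to complete a pair.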

Additional observations from a re-analysis of the deposited data

How the results depend on the processing

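No paired analysis was possible because the tables hold 1 value per condition and no value per library, and for the same reason no library could be left out. Requiring at least 1 FPKM in either condition changed no count of the 10 genes or of the 49 neighbouring genes. Requiring at least 10 FPKM gave 15 neighbouring genes lower with CdSe/ZnS instead of 16 and left the other counts as reported. Of the entries reaching 10 FPKM, 9.64% were called higher and 46.2% lower with CdSe/ZnS, and 24.6% and 18.3% with InP/ZnS. With q under 0.01, 2 of the 10 genes instead of 3 were higher with CdSe/ZnS, and their other counts stayed as reported. The neighbouring genes were then 7 higher and 15 lower with CdSe/ZnS, and 20 higher and 2 instead of 4 lower with InP/ZnS. Where the log2 fold change also had to be at least 1 in size, 0 of the 10 genes were higher and 0 lower with CdSe/ZnS and 5 higher with InP/ZnS, and of the neighbouring genes 0 were higher and 2 lower with CdSe/ZnS and 4 higher and 1 lower with InP/ZnS. The normal test on folds as deposited gave 2 of the 10 genes higher and 1 lower with CdSe/ZnS, and 6 higher with InP/ZnS. It gave 5 neighbouring genes higher and 11 lower with CdSe/ZnS, and 15 higher and 1 lower with InP/ZnS. Relative to the median it gave 5 of the 10 genes higher with InP/ZnS, 2 neighbouring genes lower with CdSe/ZnS, and 14 higher and 1 lower with InP/ZnS. With the length trend removed it gave 5 of the 10 genes higher with InP/ZnS and 0 lower with CdSe/ZnS, 3 neighbouring genes lower with CdSe/ZnS, and 12 higher and 1 lower with InP/ZnS. The log2 fold changes of MLS1, FBP1 and ACS1 with CdSe/ZnS, which were not called, were negative as deposited and positive relative to the median (0.21, 0.33 and 0.34) and with the length trend removed (0.07, 0.42 and 0.18), and that of PCK1 was positive relative to the median only (0.10). A pseudocount of 1 FPKM moved no fold of the 10 genes by more than its implied standard error. The cause of these changes was not tested. The depth is unknown, so no limit for low genes is given.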
